A study of Rattus norvegicus with 49 samples.

Results

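This report describes 23 genes whose signal varied together in liver and kidney arrays of male rats of an outbred stock. Each gene was read from 1 probe set, and other probe sets of a gene did not always repeat the pattern. A gene belonged to this set when its deviation from the mean of its dose group correlated between the organs at a Pearson r of 0.8 or more over 24 pairs of arrays, and when its residual standard deviation (SD) within dose groups was at least 0.3 on the log2 scale in both organs. These 23 are 0.162% of the 14217 genes measured, and 9.83% of the 234 genes that varied by at least 0.3 in both organs. The values that chose the genes (r and SD) are given below as a description, with no test, and so are the levels behind them.

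The rats were male Harlan Sprague Dawley animals, 6 to 8 weeks old when assigned to groups, housed by 5 to a cage and kept on the NTP-2000 diet. They received propylene glycol phenyl ether (PPH), a glycol ether solvent, by gavage in corn oil on 5 consecutive days, at a dosing volume of 5 mL/kg, and were killed on the day after the last dose. Dose groups were 0, 1, 10, 100, 500 and 1000 mg/kg, and the animals at 0 mg/kg are the controls of their organ. Liver was represented by 25 arrays, 5 from controls and 4 from each other group, and kidney by 24, 5 from controls, 3 from the 500 mg/kg group and 4 from each other group. Each array held total RNA of 1 organ sample, on Affymetrix Rat Genome 230 2.0 arrays, and all levels are log2 values, so that a difference of 1 is a doubling. The treatment text of the labels names another compound, MCHM, where the title and the sample labels name PPH, and the name PPH is used here. The labels number the biological replicates within each organ and dose but do not say that a liver and a kidney array with the same number came from the same animal.

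Animals of an outbred stock differ in inherited alleles, and an allele is carried in every organ. An array probe set reads an RNA through short sequences, so its signal depends on how much RNA is present and also on whether that RNA holds the sequence that the probes were designed for. Expression also differs between animals through states that reach the whole body, such as the phase of the circadian clock, in which the repressors Nr1d1 and Nr1d2 and the activator Bmal1 regulate each other, and such as growth hormone and cytokine signals that act through STAT transcription factors.

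The median level of an array was 6.47 to 6.62 in liver and 6.62 to 6.77 in kidney, and r across genes was at least 0.987 for any 2 arrays of 1 organ. The organ labels were checked against markers of the tissue. The mean level of 7 hepatocyte markers was 13.69 to 13.90 in liver arrays and 3.83 to 5.17 in kidney arrays, and that of 8 proximal tubule markers was 5.86 to 6.26 in liver arrays and 12.08 to 12.55 in kidney arrays. Precision is limited by how many arrays each group has.

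Whether equal numbers marked partner arrays was examined first, with genes chosen from pairs that took no part in the comparison. For each dose the same rule was applied to the pairs of the other doses, which gave 20 to 28 genes, and each kidney array of the left-out dose was correlated over those genes with each liver array of that dose. For 23 of the 24 kidney arrays the liver array with the same number was the best match. The r with the same number had a median of 0.82 and lay at 0.60 or more in 21 arrays, and the highest r with any other number had a median of 0.08. Of the 23 members, 12 were chosen whichever dose was left out, and 15 genes that are not members were chosen in at least 1 of the 6 rounds.

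The 1 exception was kidney replicate 3 of 500 mg/kg. Its r was -0.01 with liver replicate 3 and 0.87 with liver replicate 4 of that dose. The series holds no kidney array numbered 4 at 500 mg/kg. Among the 23 matched arrays the lowest r with the same number were 0.20 for replicate 1 of 10 mg/kg, where liver replicate 4 reached 0.16, and 0.36 for replicate 2 of 1000 mg/kg. The rule as written pairs the arrays by number, and that pairing is kept here. Without the 500 mg/kg replicate 3 pair, r was 0.80 to 0.98 in the 23 members, and the values of RT1-Bb and RT1-Ba, which differed most, are given beside those genes. With that kidney array set beside liver replicate 4, 27 genes met the rule. These held 22 of the 23 members, all but Ly6al, and 5 further genes, Ccdc68, Prcp, Pxmp4, Rdh16 and Ubd. Of the 23 members, 19 had a higher r in that pairing.

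**Figure D1:**
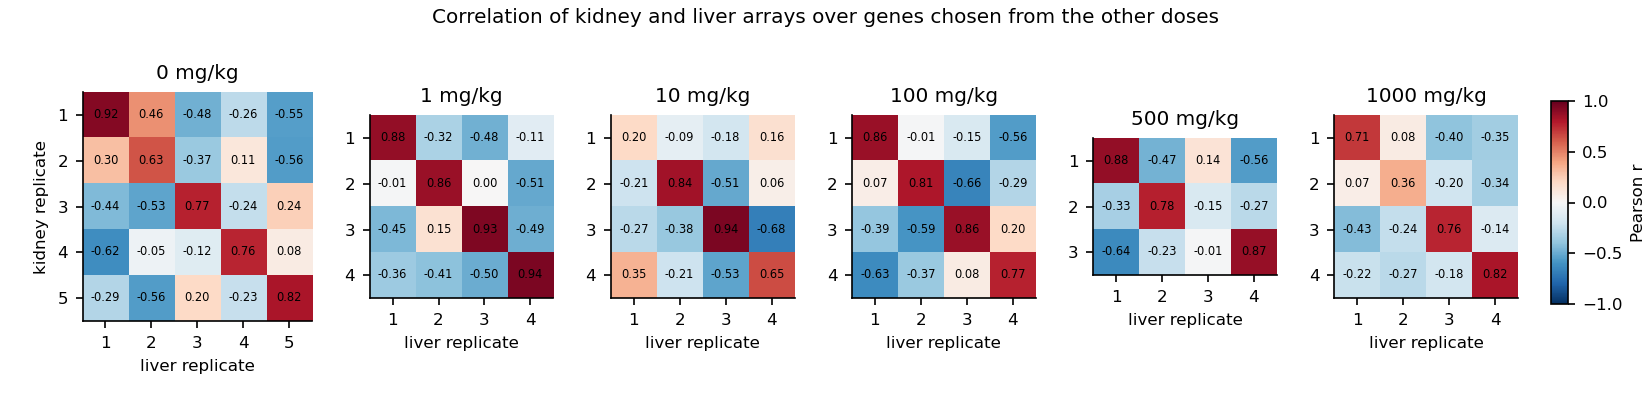
Pearson r of each kidney array (rows, replicate number) with each liver array (columns, replicate number) of the same dose, over the genes that the pairs of the other doses chose, with 1 panel per dose. The diagonal holds the highest value of its row in 23 of 24 rows; at 500 mg/kg the row of kidney replicate 3 has its highest value, 0.87, at liver replicate 4.

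Among the members r was 0.81 to 0.98, beside a median of 0.13 over the 234 genes with an SD of at least 0.3 in both organs and of 0.07 over all 14217 genes. In all, 31 genes had an r of 0.8 or more, and 0 had an r of -0.8 or less, the lowest being -0.75. The SD of the members within dose groups was 0.30 to 2.18 in liver and 0.32 to 2.83 in kidney, beside a median of 0.17 and 0.15 over all genes, and 15 of the 23 had the larger SD in kidney. Just inside the r threshold lay Abca1 (0.806), RT1-Bb (0.810) and RT1-Ba (0.813), and just outside it H2-Q7-ps1 (0.795), Prcp (0.795) and Ubd (0.793). Just inside the SD threshold, by the smaller of the 2 organs, lay Aqp11 (0.304), Slc15a4 (0.312) and Abhd3 (0.338), and just outside it Ccl27 (0.252), Vps50 (0.224) and Scrn3 (0.202).

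Several members did not vary by degrees but lay at separate levels. Mx2, an interferon-induced GTPase of the antiviral response, had the highest r of all members, 0.98 (Spearman's rho 0.96, SD 1.35 in liver and 2.32 in kidney). Its level was 4.47, 4.87, 7.61, 6.72 and 6.73 in liver replicates 1 to 5 of 0 mg/kg, and 4.64, 4.21, 10.01, 8.78 and 8.43 in the kidney replicates of the same numbers. Replicates 1 and 2 were thus low and the other 3 high in both organs. Over all doses, 6 liver arrays lay between 3.95 and 4.87 and 19 between 6.42 and 7.94, while 6 kidney arrays lay between 3.63 and 4.75 and 18 between 8.14 and 10.02. No array lay between these levels, and in 24 of 24 pairs both organs were on the same side. The low pairs were replicates 1 and 2 of 0 mg/kg, replicate 3 of 1 mg/kg, replicates 3 and 4 of 100 mg/kg and replicate 1 of 500 mg/kg. All these levels are those of the chosen probe set, 1369202_at. The gene's other probe set, 1387283_at, ran from 5.58 to 7.66 in liver. Its r with the chosen one was -0.22 in liver and 0.88 in kidney, and its r between the organs was -0.09. The level of Mx2 as a whole cannot therefore be read from 1 probe set.

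Resp18, a protein of endocrine secretory granules, had an r of 0.95 (rho 0.91). In kidney 13 arrays lay at 6.37 or below and 11 at 8.49 or above, out of a range of 5.15 to 9.60. In liver the levels ran from 3.67 over a median of 4.34 to 6.46 with no gap as wide. At 0 mg/kg its liver levels in replicates 1 to 5 were 5.19, 3.85, 5.28, 3.67 and 4.28, and its kidney levels were 8.83, 5.28, 8.49, 5.15 and 5.91. Replicates 1 and 3 were the high ones in both organs.

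Abhd3, a lipase of the alpha/beta hydrolase family that cleaves phospholipids, was at separate levels in liver only, as read by its chosen probe set, 1382137_at. There 19 liver arrays lay between 2.89 and 4.39 and 6 between 7.37 and 8.18. In kidney every array was high, from 7.59 over a median of 7.91 to 8.73. The SD was 2.18 in liver and 0.34 in kidney. The liver arrays on the upper level were replicate 2 of 0, 10, 100 and 500 mg/kg, replicate 4 of 1 mg/kg and replicate 3 of 1000 mg/kg. Their kidney partners lay between 8.15 and 8.73, and 1 other kidney array, replicate 1 of 10 mg/kg at 8.18, lay within that range. The r of Abhd3 was 0.82 and its rho 0.31, the lowest rho among the members. The gene's other probe set, 1381773_at, ran only from 3.41 to 4.86 in liver. The level of Abhd3 as a whole cannot therefore be read from 1 probe set.

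**Figure D2:**
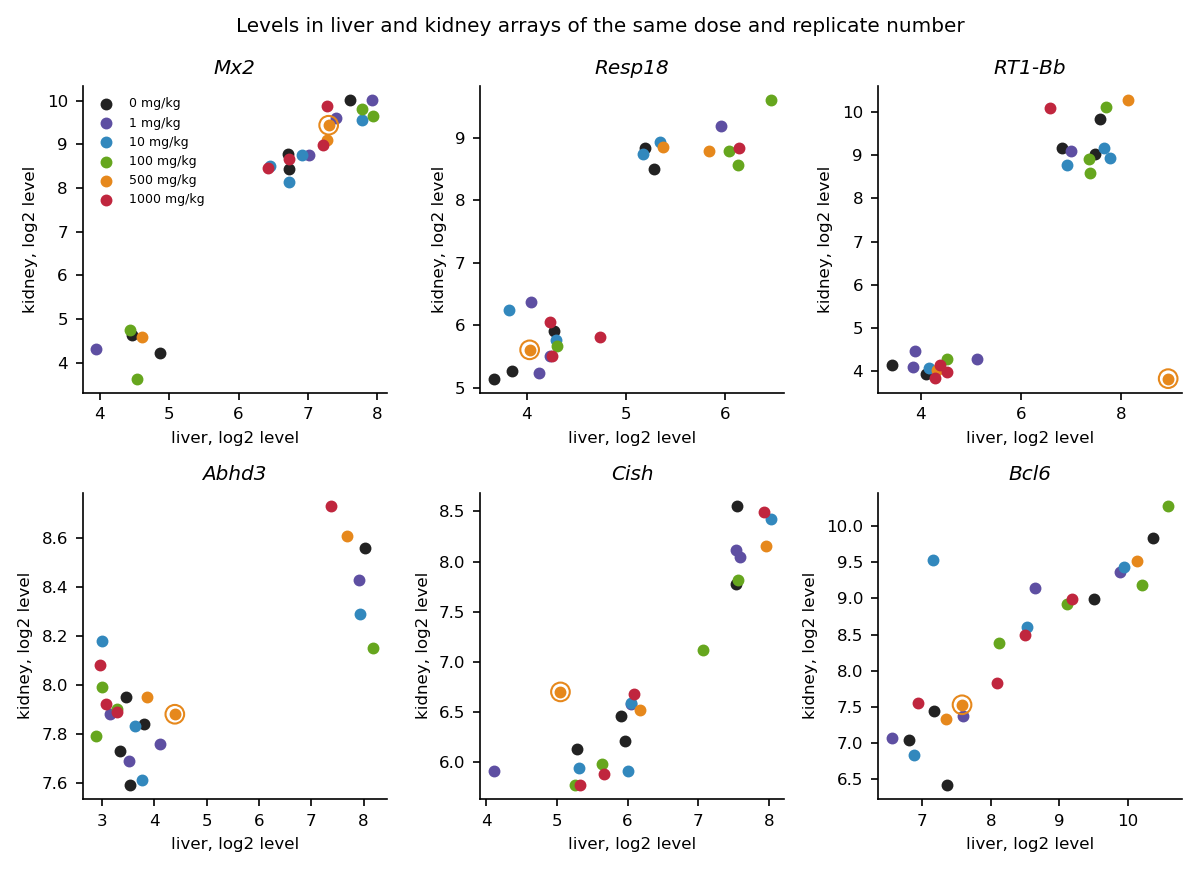
Log2 level in liver (x axis) and in kidney (y axis) for 6 members, with 1 point per pair of arrays of the same dose and replicate number, coloured by dose; the ringed point is replicate 3 of 500 mg/kg. Mx2 falls into 2 groups of points with none between them, RT1-Bb does so with the ringed pair apart, Abhd3 separates in liver only, and Bcl6 forms a continuous band with replicate 1 of 10 mg/kg above it.

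The rat major histocompatibility complex, RT1, contributed 3 members. RT1-Ba and RT1-Bb encode the alpha and beta chains of a class II molecule that presents peptides to helper T cells, and such genes are highly polymorphic. RT1-Bb lay at 6.81, 4.11, 7.48, 3.42 and 7.57 in liver replicates 1 to 5 of 0 mg/kg, and at 9.17, 3.94, 9.03, 4.15 and 9.83 in kidney. Replicates 2 and 4 were low in both organs. Over all doses 12 kidney arrays lay at 4.48 or below and 12 at 8.58 or above, and 12 liver arrays lay at 5.12 or below and 13 at 6.57 or above. In 23 of 24 pairs both organs were on the same side. The exception was replicate 3 of 500 mg/kg, at 8.93 in liver and 3.83 in kidney. The r of RT1-Bb was 0.81 with that pair and 0.94 without it.

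RT1-Ba was high in most arrays. It lay at 5.67 or below in 4 liver arrays and at 8.40 or above in the other 21, and at 5.53 or below in 4 kidney arrays and at 9.37 or above in the other 20. Replicate 5 of 0 mg/kg (4.90 in liver and 4.90 in kidney), replicate 4 of 100 mg/kg (4.68 and 5.23) and replicate 1 of 500 mg/kg (5.67 and 5.37) were low in both organs. Replicate 3 of 500 mg/kg was low in liver (5.37) and high in kidney (10.10). Replicate 2 of 1000 mg/kg was the reverse, at 8.40 in liver and 5.53 in kidney. Both organs were on the same side in 22 of 24 pairs, and r was 0.81 with and 0.92 without the 500 mg/kg replicate 3 pair.

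The 2 chains did not vary in parallel. Over the 24 pairs, the mean deviations of RT1-Ba and RT1-Bb correlated at -0.68. The 4 kidney arrays low in RT1-Ba held the 4 highest kidney levels of RT1-Bb, 9.83, 10.11, 10.28 and 10.10. These readings depended on the probe set. Another probe set of RT1-Ba, 1370822_at, also agreed between the organs (r 0.84), but its deviations ran against those of the chosen one, 1377334_at, at -0.63 in liver and -0.80 in kidney. It followed the chosen probe set of RT1-Bb, 1371033_at, at 0.97 in liver and 0.98 in kidney. The other probe set of RT1-Bb, 1371065_at, followed the chosen one of RT1-Ba at 0.83 in liver and 0.81 in kidney and ran against its own gene's at -0.55 and -0.75. The level of either chain as a whole cannot therefore be read from 1 probe set.

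RT1-T24-3, annotated as a class I gene of the same complex, had an r of 0.86 (rho 0.85). It was low in 2 arrays of each organ, replicates 3 and 5 of 0 mg/kg, at 6.83 and 6.85 in liver and 5.67 and 5.82 in kidney. Every other array lay at 7.19 or above, in both organs. The highest level was 8.70 in liver and 8.66 in kidney.

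The circadian clock contributed the nuclear receptor Nr1d2 (REV-ERB beta), a transcriptional repressor, and Bmal1, the activator that pairs with Clock and whose gene Nr1d2 and its relative Nr1d1 repress. Nr1d2 had an r of 0.86 and Bmal1 of 0.82. Nr1d2 ranged from 6.65 over a median of 8.24 to 9.40 in liver and from 7.28 over 8.59 to 9.37 in kidney. The 2 lowest liver arrays, replicate 1 of 1 mg/kg at 6.65 and replicate 2 of 10 mg/kg at 6.79, had the 2 lowest kidney partners, at 7.59 and 7.28. Bmal1 ranged from 5.96 over 7.58 to 7.89 in liver and from 4.39 over 6.16 to 6.79 in kidney. Its lowest liver array, replicate 5 of 0 mg/kg at 5.96, had the kidney partner at 4.55. In that replicate Nr1d2 had its highest liver level, 9.40. The deviations of the 2 genes, averaged over the organs, correlated at -0.67 over the 24 pairs.

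The nuclear receptor element AGGTCA forms part of the sites that REV-ERB receptors bind. The bases beside it were not searched, so a match is not read as a REV-ERB site. The promoters of Bmal1 and Nr1d2 hold the element in the window from RefSeq (build GRCr8). That window runs from 250 bases before to 50 after the annotated start. The 250 bases before the start are shown for the 2 clock members, 5′ to 3′ on the plus strand, with this element in capitals. The windows are chr1:176766078-176766327 for Bmal1, with the match starting 15 bases before the start, and chr15:9954784-9955033 for Nr1d2, with the match at 187 bases before it.
Bmal1: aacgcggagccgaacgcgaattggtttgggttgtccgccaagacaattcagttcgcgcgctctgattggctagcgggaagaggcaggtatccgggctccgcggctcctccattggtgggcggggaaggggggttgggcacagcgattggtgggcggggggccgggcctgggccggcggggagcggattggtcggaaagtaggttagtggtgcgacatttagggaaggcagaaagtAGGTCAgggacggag
Nr1d2: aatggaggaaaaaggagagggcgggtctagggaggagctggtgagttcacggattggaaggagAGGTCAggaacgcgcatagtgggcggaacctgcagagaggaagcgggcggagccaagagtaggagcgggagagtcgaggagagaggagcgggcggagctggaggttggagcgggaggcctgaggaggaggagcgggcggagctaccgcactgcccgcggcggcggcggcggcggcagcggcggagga

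The motif AGGTCA, read on both strands, occurs in 16.2% of all 33469 windows of that length. Windows were given for 18 of the 23 members, and 4 of these held it, Abhd3, Bmal1, Cish and Nr1d2. The E-box CACGTG, the site of Bmal1 and Clock, occurs in 6.42% of all windows and in those of 3 members, Abca1, Bcl6 and Gadd45g. The D-box forms TTATGTAA and TTACGTAA, the glucocorticoid element in a long and a short form, and the interferon element were in the window of no member, beside 0.893%, 0.12%, 0.00896%, 0.439% and 3.92% of all windows. A match or its lack describes the letters of this window only.

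Other genes of the clock showed the same agreement to a lesser degree. Of a list of 24 clock and clock output genes, 22 were measured, and 11 of them had an r of 0.5 or more between the organs. These 11 include the 2 members, which the rule chose by r. The list's median r was 0.50, against 4.61% of all genes at 0.5 or more and a median of 0.07. Most genes varied little. Among the 234 genes with an SD of at least 0.3 in both organs, 63 had an r of 0.5 or more and the median was 0.13. Of the 22 clock genes, 10 had such an SD. Below the 2 members came Per3 (0.79), Nr1d1 (0.78), Tef (0.76), Cry1 (0.75), Npas2 (0.70), Hspa1a (0.62), Dbp (0.60), Per2 (0.57) and Cirbp (0.54). The other 11 lay under 0.5, the highest being Hlf (0.47) and Clock (0.45) and the lowest Tspan4 (-0.13) and Noct (-0.16). In the averaged deviations, the gene most like Nr1d2 was Nr1d1 (0.92) and the most opposite was the repressor Cry1 (-0.91). The gene most like Bmal1 was Npas2 (0.94), which can take the place of Clock, and the most opposite were Tef (-0.93) and Dbp (-0.91), transcription factors of the clock's output.

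Of 17 measured targets of glucocorticoids, 5 had an r of 0.5 or more and the median was 0.33, with none a member. The interferon response list of 17 measured genes held 1 member, Mx2. There 6 genes had an r of 0.5 or more and the median was 0.28, Mx1 had 0.46 and Isg15 0.60, and no gene but Mx2 had an SD above 0.43 in either organ. Of 20 measured genes of the RT1 complex and antigen processing, 3 had an r of 0.5 or more, among them the 2 class II members, and the median was 0.22. The median was -0.09 for 16 genes of fasting and feeding, 0.08 for 9 heat shock genes and 0.06 for 47 xenobiotic and conjugating enzymes, with 3, 2 and 2 genes at 0.5 or more and no members.

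**Figure D3:**
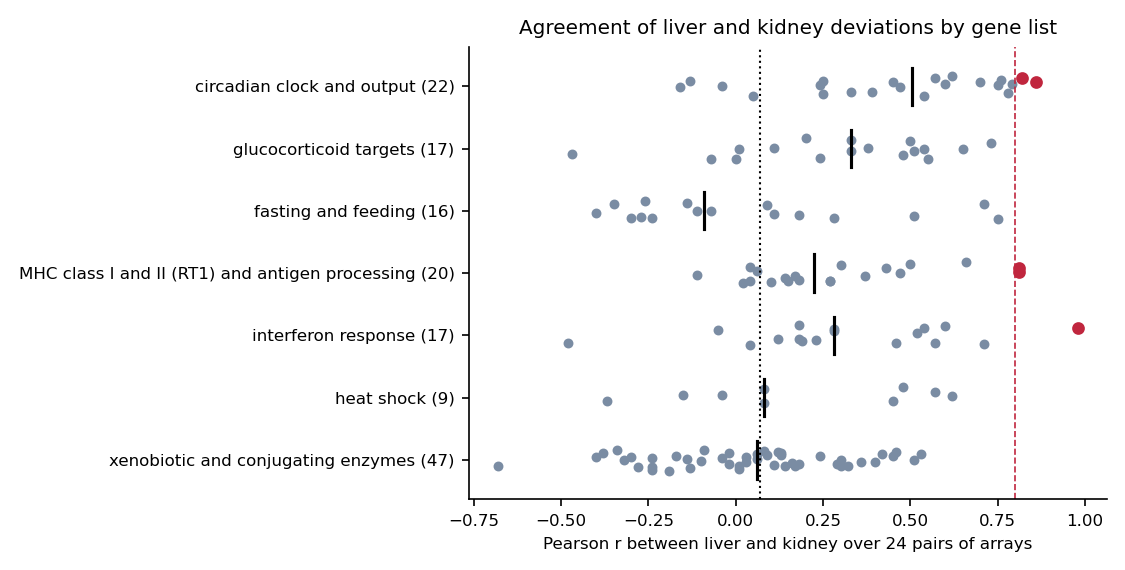
Pearson r between liver and kidney deviations over 24 pairs of arrays (x axis) for each measured gene of 7 lists (rows, with the number measured), each point being 1 gene and the black bar the list's median; red points are members, the dashed line is 0.8 and the dotted line the median of all genes, 0.07. The clock list has a median of 0.50 and the xenobiotic list one of 0.06.

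Cish, Gadd45g and Jun were the only members that varied closely together among themselves. Cish inhibits cytokine and growth hormone signalling and is itself induced by it through STAT5, Gadd45g is a stress and growth arrest protein, and Jun is a subunit of the AP-1 transcription factor induced early after many stimuli. Over the 24 pairs, the averaged deviations of Cish correlated at 0.86 with Gadd45g and at 0.86 with Jun, while Gadd45g and Jun correlated at 0.57. These were the 2 of 253 pairs of members with an absolute r of 0.8 or more. The median absolute r among members was 0.18, 18 pairs reached 0.5, and 20 members stood alone at the 0.8 level.

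Cish had an r of 0.94 between organs (rho 0.89). Its level in replicates 1 to 5 of 0 mg/kg was 5.96, 5.29, 5.91, 7.53 and 7.54 in liver and 6.21, 6.13, 6.46, 7.78 and 8.55 in kidney. Replicates 4 and 5 were high in both organs. In kidney 8 arrays lay at 7.78 or above and the other 16 at 7.12 or below. Gadd45g (r 0.90) ranged from 6.67 over a median of 7.88 to 9.82 in liver and from 6.84 over 7.37 to 10.02 in kidney. Jun (r 0.82) ranged from 7.69 over 9.02 to 10.54 in liver and from 8.51 over 9.21 to 9.91 in kidney, with an SD of 0.83 in liver and 0.41 in kidney. Liver replicate 2 of 1000 mg/kg was the highest of its group for all 3 genes, at 7.93 for Cish, 9.05 for Gadd45g and 10.54 for Jun.

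The genes most like Cish over all genes were Ier3 (0.89), an immediate early gene, Irs2 (0.87), the insulin receptor substrate, Gadd45a (0.87), Errfi1 (0.87), an inhibitor of EGF receptor signalling, and Rgs3 (0.87). Those most like Jun were Vgll4 (0.92), Dusp1 (0.90), a phosphatase of MAP kinases, Cish, Mdm2 (0.85) and Csrnp1 (0.84). Gadd45a (0.89) and Ier3 (0.87) led for Gadd45g. The averaged deviations are not scaled, so the organ with the larger SD weighs more. Among the genes most like Cish, the SD was 0.52 in liver and 0.19 in kidney for Ier3. It was 0.76 and 0.16 for Gadd45a, and 0.65 and 0.15 for Rgs3. Irs2 (0.44 and 0.66) and Errfi1 (0.42 and 0.67) had the larger SD in kidney. The likeness within each organ alone was not computed.

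STAT factors bind TTCNNNGAA. This motif, read on both strands, occurs in 8.87% of all windows and in those of 2 members, Cish and Trub1. The 250 bases before the start of Cish, chr8:116850719-116850968 of GRCr8 on the plus strand, hold 4 matches, which start 241, 230, 136 and 119 bases before the start and are in capitals.
Cish: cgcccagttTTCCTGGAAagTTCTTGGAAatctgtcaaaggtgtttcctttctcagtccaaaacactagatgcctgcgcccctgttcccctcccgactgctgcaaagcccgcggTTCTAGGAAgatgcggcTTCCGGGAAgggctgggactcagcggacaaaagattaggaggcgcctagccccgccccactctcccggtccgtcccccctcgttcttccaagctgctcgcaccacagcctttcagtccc

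Bcl6, a zinc finger repressor, had large and continuous variation, with an SD of 1.34 in liver and 1.13 in kidney and an r of 0.86 (rho 0.85). Its level ran from 6.55 over a median of 8.12 to 10.59 in liver and from 6.42 over 8.55 to 10.27 in kidney. At 0 mg/kg replicates 1 to 5 lay at 10.37, 9.50, 6.81, 7.36 and 7.17 in liver and at 9.84, 8.99, 7.05, 6.42 and 7.44 in kidney. Replicates 1 and 2 were highest in both organs. Replicate 1 of 10 mg/kg departed from the rest, at 7.15 in liver and 9.53 in kidney, and without it r was 0.93. The averaged deviations of Bcl6 and Mx2 correlated at -0.64.

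A few members were low in a small number of pairs of arrays. Enpp1, an enzyme that makes pyrophosphate outside the cell, had an r of 0.90. It lay at 7.59, 7.65 and 7.94 in liver and at 6.45, 5.92 and 6.17 in kidney in replicate 4 of 1 mg/kg, replicate 3 of 10 mg/kg and replicate 2 of 100 mg/kg. Every other array lay at 8.87 or above in liver and at 7.57 or above in kidney. Elavl1, the RNA-binding protein HuR, as read by its chosen probe set 1391743_at, had an r of 0.84. It was low in replicate 3 of 0 mg/kg (8.00 in liver and 8.05 in kidney), replicate 4 of 1 mg/kg (7.98 and 7.70) and replicate 3 of 10 mg/kg (7.85 and 7.58), and at 8.96 or above in liver and 8.42 or above in kidney in all others. The low arrays of Enpp1 and Elavl1 were the same at 2 replicates, replicate 4 of 1 mg/kg and replicate 3 of 10 mg/kg. The averaged deviations of the 2 genes correlated at 0.69. Another probe set of Elavl1, 1375892_at, ran only from 8.65 to 9.10 in liver and from 8.94 to 9.42 in kidney. The level of Elavl1 as a whole cannot therefore be read from 1 probe set.

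Itgal, the alpha chain of the leukocyte integrin LFA-1, had an r of 0.82 and was lowest in replicate 2 of 500 mg/kg, at 5.40 in liver and 5.02 in kidney. All other arrays lay at 6.73 or above in liver and 5.46 or above in kidney. In bulk tissue, fewer cells of a type and less RNA per cell cannot be told apart. The means of the T and NK cell markers correlated with Itgal at -0.24 in liver and 0.23 in kidney, and of all 10 marker lists none reached an absolute r of 0.5 with it in either organ.

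Ly6al, of the Ly6 family of surface proteins, had an r of 0.82 (rho 0.74) and 2 ranges in kidney, 11 arrays at 6.82 or below and 13 at 8.20 or above. In liver it ran from 3.87 over a median of 5.95 to 7.52. At 0 mg/kg replicate 5 was high in both organs, at 6.95 in liver and 10.37 in kidney, while the other 4 had levels of 3.87 to 5.16 in liver and of 5.46 to 6.37 in kidney. Gna11, a G protein alpha subunit, had an r of 0.86, and in kidney 8 arrays at 7.27 or above stood apart from 16 at 6.71 or below. In liver it ran from 5.32 over 6.10 to 6.78.

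Ccdc77, a coiled-coil protein, had an r of 0.89 and was highest in replicate 3 of 1000 mg/kg, at 6.97 in liver and 6.94 in kidney. The other liver arrays lay at 6.35 or below. Trub1, a pseudouridine synthase that modifies RNA, had an r of 0.85 and ran from 4.95 over 5.89 to 6.42 in liver and from 5.00 over 5.86 to 6.37 in kidney. Ecd, the homologue of the fly gene ecdysoneless, had an r of 0.91 and the highest rho after Mx2, 0.93. It ran from 5.99 over 6.59 to 7.41 in liver and from 5.46 over 6.06 to 6.81 in kidney, with an SD of 0.39 and 0.34.

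The members with the smallest spread included 3 membrane transporters. Slc15a4, a lysosomal carrier of histidine and small peptides, had an r of 0.86 and ran from 6.74 over 7.34 to 7.76 in liver and from 6.18 over 6.97 to 7.29 in kidney. Aqp11, an intracellular aquaporin, had an r of 0.86 and ran from 6.83 over 7.74 to 8.17 in liver and from 7.67 over 8.69 to 9.29 in kidney. It was lowest in replicate 4 of 0 mg/kg (6.83 in liver and 7.74 in kidney), replicate 3 of 1000 mg/kg (6.98 and 7.92) and replicate 2 of 10 mg/kg (7.15 and 7.67). Abca1, the exporter of cholesterol to lipoproteins, had an r of 0.81 and was lowest in liver in replicate 4 of 1000 mg/kg, at 8.73, where its kidney level was 5.88. Its other liver arrays lay between 9.64 and 10.54.

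How far r rested on single pairs of arrays differed among the members. When the 2 pairs farthest from the median liver deviation were left out, r lay between 0.65 for RT1-Ba and 0.97 for Mx2, and it stayed at 0.8 or more in 13 of 23. For genes at separate levels, r mainly says on which level each pair lay. With each of the 24 pairs left out in turn, 20 to 27 genes met the rule, and 12 members met it every time. The count was lowest without replicate 5 of 0 mg/kg, where Bmal1, Ly6al, RT1-Ba and RT1-Bb were lost.

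**Figure D4:**
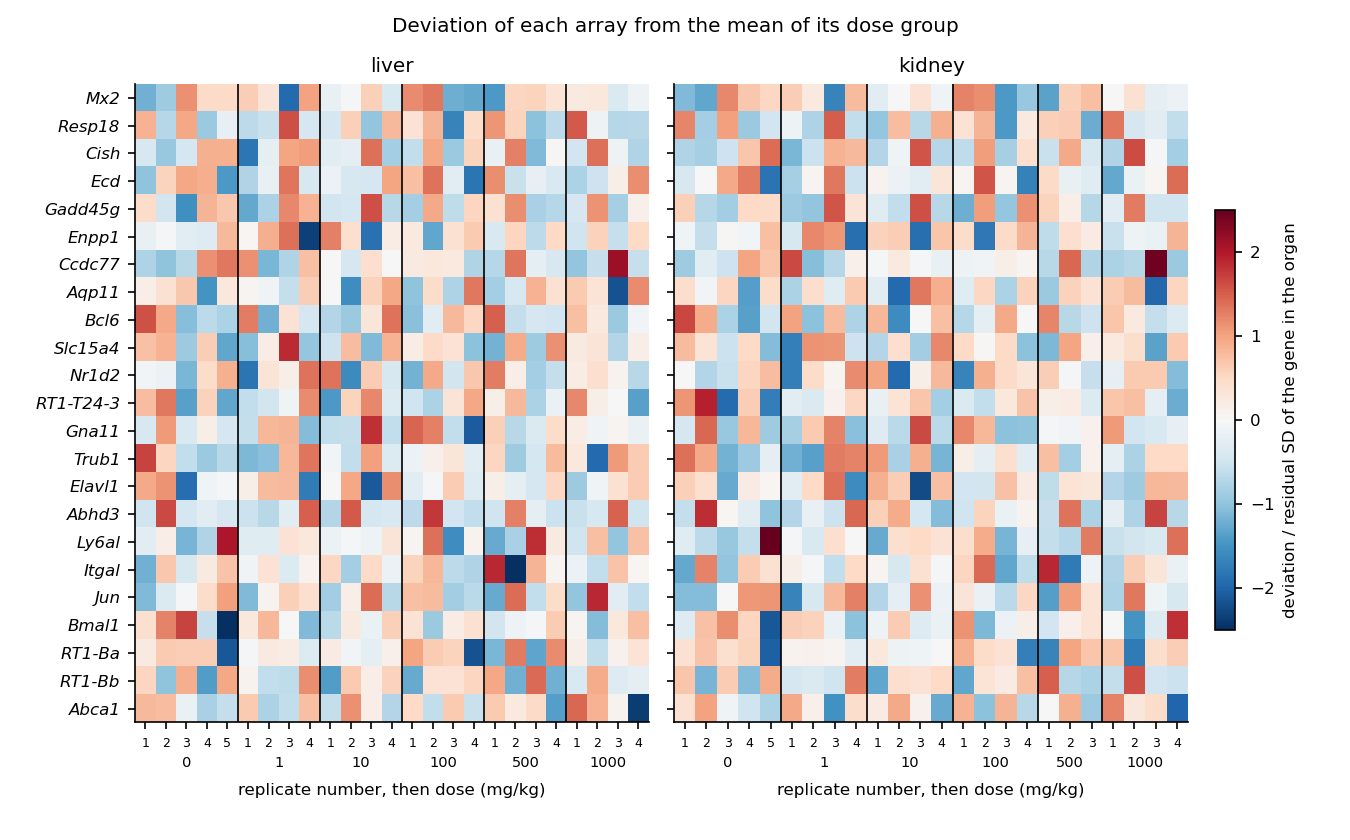
Deviation of each array from the mean of its dose group, divided by the residual SD of the gene in that organ (colour), for the 23 members (rows, by falling r) in liver (left) and kidney (right), with arrays ordered by dose in mg/kg and replicate number. The 2 panels show like colours at most positions, and no block of rows shares one pattern over all arrays.

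The members are spread over 12 chromosomes of the GRCr8 assembly, and 1 pair, RT1-Ba and RT1-Bb, are neighbours with no annotated gene between them. Some of the genes that varied most like a member lie beside it, a feature that the rule did not use. For each member the 5 genes with the highest r of the averaged deviations were listed, 115 in all, and 8 of them (6.96%), for 6 members, lie within 50 genes of it on the chromosome. On average 0.251% of the measured genes lie that close to a member. The nearest were Timm44 for Elavl1 (r 0.77) and Ly6l for Ly6al (0.78), each with no gene between, Sephs2 for Itgal (0.72) with 2, and RT1-DMb (0.92) and RT1-DMa (0.79) for RT1-Bb with 5 and 6. The chaperone RT1-DM loads peptides onto class II molecules. RT1-N2 (0.76) lies 10 and Gtf2h4 (0.76) 27 genes from RT1-T24-3, and Vps52 (0.76) 29 from RT1-Ba. Among the 3 most opposite genes of each member, H2-Q7-ps1 ran against RT1-T24-3 at -0.84 with 11 genes between, and Ankrd24 against Gna11 at -0.82 with 5. Probe sets of genes of a family, such as those of RT1 and Ly6, may share target sequence.

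The gene most like Mx2, Azin2, reached 0.73, followed by Mov10l1 (0.71), Mtch2 (0.71), Msh5 (0.71) and Muc2 (0.70). None of these 5 lies on the chromosome of Mx2, and none had a pattern as close to it as Npas2 had to Bmal1.

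Other probe sets of the same gene were on the array for 10 of the members, 17 in all. Of these, 5 had an r of 0.8 or more between the organs and 9 an r under 0.5. The second probe sets of Cish (r 0.92) and Ccdc77 (0.93) and both further ones of Jun (0.83 and 0.80) repeated the pattern, with an r with the chosen one of 0.88 or more in each organ. A further one of Nr1d2, 1370541_at, had 0.76 and followed the chosen one at 0.99 in liver and 0.93 in kidney. Another, 1370540_at, at a mean of 3.35 in liver and 3.03 in kidney, had -0.19 and followed the chosen one at 0.47 and 0.50. Elavl1 did not repeat. Its probe set 1375892_at, at a mean of 8.92 in liver and 9.18 in kidney, had an SD of 0.10 and 0.12 and an r of 0.28. The second probe set of Mx2, 1387283_at, followed the chosen one in kidney (0.88) but not in liver (-0.22), and its r between the organs was -0.09. The 3 further probe sets of Abca1 had an r of 0.01, 0.23 and 0.32 between the organs. In liver the deviations of the first and second ran against those of the chosen one, at -0.82 and -0.67, while those of the third followed it at 0.93, so the level of Abca1 as a whole cannot be read from 1 probe set. The further one of Abhd3 had an r of 0.51, with an SD in liver of 0.36, beside 2.18 for the chosen one.

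The members were also set beside markers of cell types. Of 460 correlations between a member and the mean of 1 of 10 marker lists in 1 organ, 7 had an absolute r of 0.5 or more. The share over all genes was not computed, so this count describes the members alone. Trub1 correlated at 0.68 with the proximal tubule markers in liver, where these lay at 5.86 to 6.26, beside 12.08 to 12.55 in kidney. In liver that list does not mark a cell type of the tissue. Trub1 also correlated at 0.56 with the 5 erythrocyte markers in kidney, at 7.91 to 8.74. Bcl6 in kidney correlated at 0.52 with the erythrocyte markers, at 0.52 with the 6 macrophage markers (6.22 to 6.82) and at -0.60 with the 8 proximal tubule markers. Nr1d2 in liver correlated at -0.52 with the 9 T and NK cell markers (4.79 to 5.18), and Jun in kidney at 0.50 with the proximal tubule markers. Whether cell content had a part in the members' variation was not tested.

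No member passed the test of a change with dose. The rule removed the mean of each dose group, so it did not use the change with dose itself. It did require an SD within groups of at least 0.3, beside medians over all genes of 0.17 in liver and 0.15 in kidney. A large SD widens the SE of this test and makes calls and groups without overlap less likely. The member counts set beside shares of all genes below carry that limit, and a lack of calls is not read as a lack of response. At an adjusted p under 0.05 (limma, Benjamini-Hochberg over 14217 genes), 0 of the 23 members were called in liver at 1, 10, 100, 500 or 1000 mg/kg against 0 mg/kg, where 0%, 0.00703%, 0%, 0.0492% and 1.05% of all genes were called. In kidney 0 were also called at each dose, against 0%, 0%, 0%, 0% and 1.55% of all genes. At shares this low a list of 23 genes would hold few calls or none in any case. At an unadjusted p under 0.05 stood 4, 2, 4, 4 and 3 members in liver (9.45%, 9.22%, 9.18%, 10.7% and 12.4% of all genes) and 1, 3, 1, 1 and 2 in kidney (2.98%, 7.35%, 6.83%, 5.08% and 13.3%), which is 25 of 230 tests. The lowest adjusted p of all was 0.234. The median log2 difference of the members at 1000 mg/kg was 0.22 in liver and 0.06 in kidney, beside 0.02 and -0.02 over all genes.

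That lowest p belonged to Aqp11 in liver. Its 4 levels at 500 mg/kg were 7.62, 7.76, 8.14 and 7.99, against 7.33, 7.39, 7.48, 6.83 and 7.36 at 0 mg/kg. All 4 lay above every control array, and the log2 difference was 0.60 ± 0.19 (SE), between a mean of 7.88 ± 0.23 (SD, n = 4) and one of 7.28 ± 0.25 (SD, n = 5), at an adjusted p of 0.234 by limma. Its arrays at 1 mg/kg (7.83, 7.78, 7.63 and 7.99) also lay above every control array, with a difference of 0.53 ± 0.19 (SE, limma adjusted p = 0.398). Among the members, Aqp11 was 1 of 23 whose arrays did not overlap those of controls in liver at 1 mg/kg and at 500 mg/kg, where 2.62% and 4.56% of all genes did not. At 10, 100 and 1000 mg/kg it was 0 of 23 members, beside 3.59%, 3.42% and 5.18% of all genes. These comparisons share their control arrays.

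The clock members had 10 of the 25 tests at an unadjusted p under 0.05. In liver the 1, 10 and 500 mg/kg groups averaged 7.84 ± 0.86, 7.82 ± 0.83 and 7.75 ± 0.62 for Nr1d2 (SD, n = 4 each), against 8.82 ± 0.50 (SD, n = 5) in the 0 mg/kg group, with limma adjusted p-values of 0.444, 0.465 and 0.308. The groups overlapped at each dose. The log2 difference from controls was -0.59 at 1 mg/kg without replicate 1 of that dose and -0.65 at 10 mg/kg without replicate 2, both over 1.5 times smaller than with it. Bmal1 in liver differed from 0 mg/kg by 0.57, 0.50, 0.58, 0.54 and 0.54 on the log2 scale from 1 to 1000 mg/kg, beside a control mean of 7.01 ± 0.67 (SD, n = 5), which held the 2 lowest liver arrays, 5.96 and 6.79. None passed, the lowest limma adjusted p being 0.332. Without the array at 5.96, replicate 5 of 0 mg/kg, these differences were 0.31, 0.24, 0.31, 0.28 and 0.28. In kidney Bmal1 lay at 6.38, 6.77, 6.28 and 6.36 at 10 mg/kg, against 5.47, 6.01, 6.22, 5.91 and 4.55 at 0 mg/kg. These did not overlap, and the difference was 0.82 ± 0.31 (SE, limma adjusted p = 0.651). Bmal1 was the 1 member of 23 without overlap in kidney at 10 mg/kg, beside 2.34% of all genes, and at 1, 100, 500 and 1000 mg/kg it was 0 members, beside 1.06%, 1.96%, 4.30% and 4.71%.

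Bmal1 averaged 7.55 ± 0.30 in 1000 mg/kg livers and 7.01 ± 0.67 in control livers, and 5.15 ± 0.70 in 1000 mg/kg kidneys and 5.63 ± 0.66 in control kidneys (SD, n = 4 and 5). The difference between the organs' responses, liver minus kidney, was 1.03 ± 0.40 (SE), with a limma adjusted p of 0.278, and it did not pass. It was the 1 member of 23 at an unadjusted p under 0.05, where 12.3% of all genes stood, and 0 members were called, beside 0.626% of all genes. The kidney levels of Bmal1 at 1000 mg/kg were 5.15, 4.39, 4.97 and 6.08, overlapping those at 0 mg/kg.

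In kidney the 10, 100 and 1000 mg/kg groups averaged 8.12 ± 0.50, 8.06 ± 0.45 and 8.10 ± 0.69 for RT1-T24-3 (SD, n = 4 each) and the 500 mg/kg group 8.18 ± 0.22 (SD, n = 3), against 7.10 ± 1.29 (SD, n = 5) in controls. None passed (limma adjusted p = 0.663, 0.719, 0.326 and 0.970 in that order). The control group holds both low arrays of this gene, 5.67 and 5.82. Without replicate 3, at 5.67, the differences at 10, 100 and 1000 mg/kg were 0.67, 0.61 and 0.65, beside 1.02, 0.97 and 1.01 with it. Ly6al differed from controls in the 1 mg/kg kidneys by 2.60 ± 0.86 (SE), with means of 9.40 ± 0.48 (SD, n = 4) and 6.80 ± 2.02 (SD, n = 5), and in the 1 mg/kg livers by 1.68 ± 0.59 (SE). The limma adjusted p-values were 1.000 and 0.389. For the members at separate levels, Mx2, Resp18, RT1-Ba, RT1-Bb and Abhd3, the lowest limma adjusted p over the 10 comparisons was 0.654, 0.448, 0.793, 0.742 and 0.719.

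**Figure D5:**
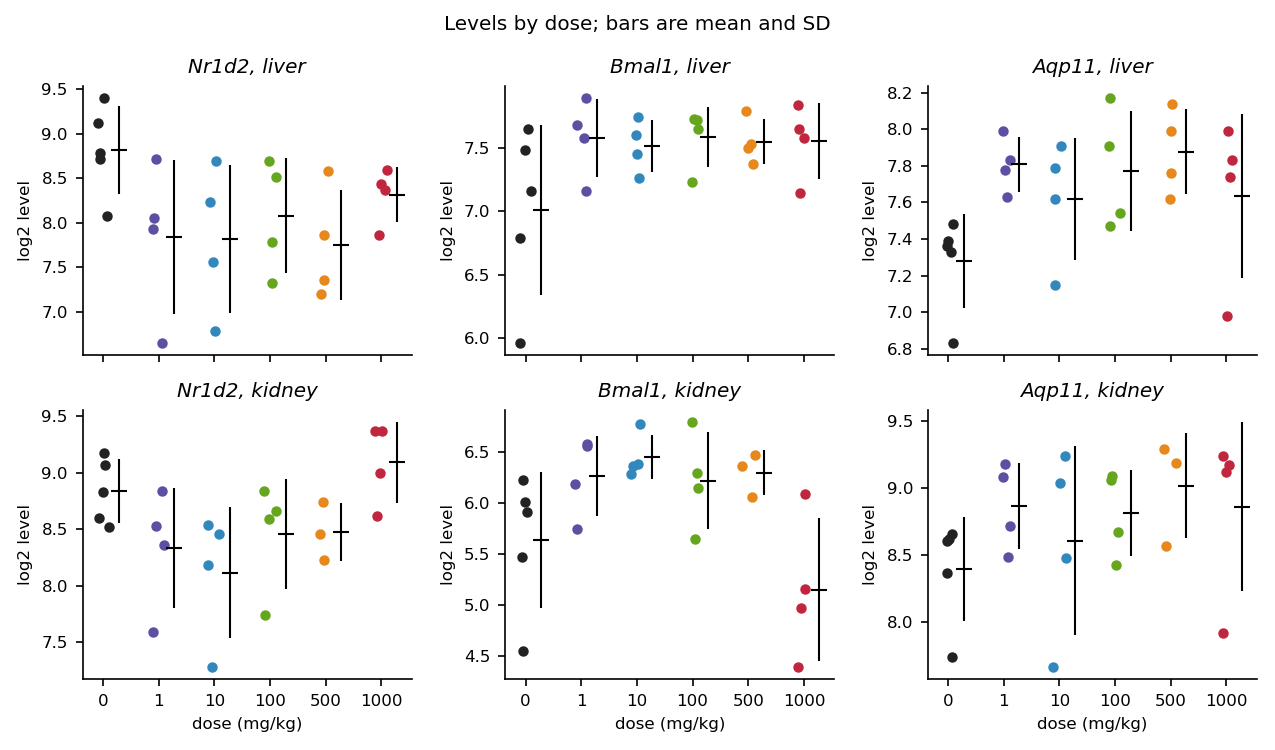
Log2 level of Nr1d2, Bmal1 and Aqp11 (columns) in liver (upper row) and kidney (lower row) by dose in mg/kg, with 1 point per array and the mean with SD beside it. In liver the Nr1d2 arrays at 1, 10 and 500 mg/kg overlap those at 0 mg/kg, in kidney the Bmal1 arrays at 10 mg/kg lie above all 5 arrays at 0 mg/kg, and in liver the Aqp11 arrays at 1 and 500 mg/kg lie above all 5 arrays at 0 mg/kg.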

How the data were processed

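RNA of 25 liver and 24 kidney samples was measured, 1 array each. The deposited table holds log2 values, a scale taken from their range. The submitters' processing notes name RMA, without a version, as the authors' way to the value of a probe set. RMA equalizes array distributions. Whether both organs entered 1 run is not stated, so deviations within an organ were used.

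Of 31099 probe sets, 57 were controls, 20826 had 1 gene symbol, 436 several and 9780 none. Symbols came through Entrez identifiers for 20758, through accessions for 2 and from the annotation for 66. Each gene was read from its probe set with the highest mean over 49 arrays, 14217 genes in all, with no filter on low values. Of 10216 probe sets without 1 symbol, 5 met the rule and are not named. The residual SD was taken over all arrays of the organ, with arrays minus groups as degrees of freedom.

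Dose was tested with limma 3.58.1 in R 4.3.3, with 1 mean per dose group and empirical Bayes moderation in each organ. Correlations are descriptions without p-values, over pairs that share dose group means. Motifs were searched in RefSeq promoter windows of GRCr8; 3 of them (AGGTCA, TTCNNNGAA and the interferon element) were added after the members were known. In the clock list Arntl entered as Bmal1 and Hspa1b as Hspa1a. The labels call the samples biological replicates. The members and the gene lists were chosen with earlier results of these data known, and named genes followed a rule: all members, the 3 genes nearest outside each threshold and the 5 genes most like a member. The other genes named, from the lists, among the most opposite genes and from the other pairing at 500 mg/kg, were picked with their values in view. The models were tested on simulated data. Alternatives changed the correlation, thresholds, probe set, normalization, pairs, filter, moderation and samples of the fit.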

Additional observations from a re-analysis of the deposited data

Results flagged for a closer look

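For each member, dose and organ with 4 or 5 arrays, the array farthest from the rest was set against Dixon's critical value. Of 253 groups, 37 (14.6%) held such an array, in 15 members. Chance gives about 1 in 20, but the rule chose these genes by the same deviations, so the share is a description and no test, and nothing is read from it. The groups of a gene in the 2 organs are not independent. In 4 cases the array stood apart in both organs at the same dose and number. These were Ccdc77 in replicate 3 of 1000 mg/kg (6.97 in liver and 6.94 in kidney), Gna11 in replicate 3 of 10 mg/kg (6.71 and 7.66), RT1-Ba in replicate 5 of 0 mg/kg (4.90 and 4.90) and RT1-Bb in replicate 2 of 1000 mg/kg (6.57 and 10.10).

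Members at separate levels accounted for many of the others. Abhd3 in liver stood above its group in replicate 2 of 0 mg/kg (8.02), 10 mg/kg (7.93), 100 mg/kg (8.18) and 500 mg/kg (7.69) and in replicate 3 of 1000 mg/kg (7.37). RT1-Ba was low in liver in replicate 4 of 100 mg/kg (4.68) and in kidney in replicate 2 of 1000 mg/kg (5.53). Its kidney replicate 4 of 1 mg/kg (9.71, others 10.35 to 10.44) stood below the rest of its group but on the upper level. RT1-Bb was low in liver replicate 1 of 100 mg/kg (4.52) and kidney replicate 1 of 10 mg/kg (4.08), and high in kidney replicate 4 of 1 mg/kg (9.09). Mx2 was low in liver replicate 1 of 500 mg/kg (4.61), where Bcl6 was high (10.13). Resp18 was high in liver replicate 3 of 1 mg/kg (5.96) and kidney replicate 1 of 1000 mg/kg (8.83). Ly6al in kidney was high in replicate 5 of 0 mg/kg (10.37) and replicate 4 of 1000 mg/kg (9.10) and low in replicate 1 of 10 mg/kg (6.80).

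Gadd45g was high in liver replicate 3 of 10 mg/kg (9.82) and kidney replicate 2 of 1000 mg/kg (8.98). Enpp1 was high in liver replicate 5 of 0 mg/kg (9.62) and low in kidney in replicate 3 of 10 mg/kg (5.92) and replicate 2 of 100 mg/kg (6.17). Elavl1 was low in kidney replicate 3 of 10 mg/kg (7.58), Ccdc77 in liver replicate 4 of 100 mg/kg (4.88), Slc15a4 in liver replicate 3 of 1000 mg/kg (7.14) and Bmal1 in liver replicate 2 of 100 mg/kg (7.23). Aqp11 was low in liver replicate 4 of 0 mg/kg (6.83) and in kidney replicate 3 of 1000 mg/kg (7.92).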

How the results depend on the processing

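Of 189 alternative results, 185 kept their call or stayed within 1.5 times the count. Most of the 185 were dose or organ tests with 0 members called before and after. With so few genes called in all, such counts could hardly change, so the total is no measure of stability. For the number of genes that meet the rule, 39 alternatives stayed within 1.5 times and 4 did not. The 23 members numbered 14 with Spearman's rho (12 of them members), 5 at an r of 0.9 or more, 11 at an SD of 0.5 or more, and 10 among genes at or above the median level in both organs. Each of these is stricter or tests fewer genes, except rho, whose cause was not tested. The count was 34 at an r of 0.7 or more, 26 at an SD of 0.2 or more, 19 with the mean of all probe sets and 24 with any probe set. With quantile normalization it was 23 and with centred arrays 23, of which 21 were members in each. Each pair left out in turn gave 20 to 27. Chosen after seeing the data, the SD over the 24 paired arrays with pairs minus 1 as the divisor, in place of arrays minus groups, gave 20, without Aqp11, Slc15a4 and Abhd3. Members called at any dose or between organs numbered 0 in every alternative run, those that left out single arrays included (0 to 0). Of the 25 tests at an unadjusted p under 0.05, 13 had a difference that moved by over 1.5 times without 1 array, and the lowest adjusted p without an array was 0.148. With the replicate number as a block 0 members were called too; the pairing of numbers across organs comes from the comparison of arrays in the report, where 23 of 24 kidney arrays matched under both alternatives. With dose and number as a random block (consensus correlation 0.07), the adjusted p of Bmal1 between organs was 0.203. Low signals hold an unknown share of background, which limits the depth of the lower levels of Mx2, RT1-Bb and Abhd3.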
